A study of Rattus norvegicus with 10 samples.

Results

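The mitochondrial ribosomal protein genes of the rat are the nuclear genes whose symbols start with Mrpl or Mrps, for proteins of the large and the small subunit of the ribosome inside mitochondria. Every probe set that the array annotation pairs with 1 such symbol was taken, and the brightest probe set by mean log2 signal over all 10 arrays stood for each gene. This gave 73 genes from 97 probe sets, of 14217 genes and 31099 probe sets on the array. The RefSeq gene list used here holds 74 protein-coding genes of both series, and the one of these without a probe set, Mrps10, was not analysed. Whether that list holds every gene of the family was not checked.

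The samples were left ventricles of rats of 250 to 300 g, taken 3 days after gene transfer to the heart, and 9 of the 10 are labelled as male Sprague-Dawley rats. In the p38 group, 5 samples had received MKK3bE, an activated form of the kinase that switches on p38, together with wild-type p38α. In the LacZ group, 5 samples had received the bacterial β-galactosidase gene, so that both groups had undergone a gene transfer. The labels give neither the vector nor its promoter, and they do not state that the arrays come from separate animals; the p-values therefore reflect only how these 10 samples vary, which could in part be technical. Total RNA of each sample was read on 1 Affymetrix rat expression array, a chip of short oligonucleotide probe sets. The comparison asks how transcript levels differ between hearts given activated p38 signalling and control hearts.

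Mitochondria keep a small genome of their own, whose protein-coding genes all specify subunits of the oxidative phosphorylation machinery. These messages are read by a separate ribosome, related to that of bacteria, whose RNAs come from mitochondrial DNA and whose proteins are all encoded in the nucleus, made in the cytosol and imported. Some of these proteins have a counterpart in the bacterial ribosome, and others exist only in mitochondria. The heart, which depends on oxidative metabolism, is rich in mitochondria. Factors that are known to drive nuclear genes for mitochondrial proteins include NRF1, the ETS-family factor GABP and YY1, together with the coactivators Ppargc1a and Ppargc1b.

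Array medians ran from 60.3 to 88.05 signal units, a 1.46-fold range, so the signals were set to log2(signal + 16) and quantile normalized, and all log2 levels below are on that scale. No pair of arrays was identical, and the median correlation of an array with the others lay between 0.952 and 0.979, the lowest values being those of p38 5 and p38 4. The cardiomyocyte markers fitted the labelled tissue, with a mean log2 level of 13.59 to 13.68 on every array, near the top of the array's range. Of 31042 probe sets other than controls, the dimmest 40% were left out, which kept 18625 probe sets and 10596 genes. All 73 mitochondrial ribosomal protein genes passed this filter with room to spare, since their lowest value on any single array was 8.18 and the limit lay at 5.80. Groups were compared with limma over all tested probe sets, p-values were adjusted by the Benjamini-Hochberg method, and a gene was counted as higher or lower at an adjusted p under 0.05. Fold changes of these genes are given as p38 minus LacZ on the log2 scale with their standard errors.

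Mitochondrial ribosomal protein transcripts differed little between p38 and LacZ hearts. Of the 73 genes, 1 passed the test as higher in p38 (Mrpl32), 1 passed as lower (Mrpl4) and 71 did not pass. Of all tested genes, 11.6% passed as higher and 6.23% as lower, 17.8% in all, against 2.74% of the mitochondrial ribosomal protein genes. Without adjustment, 6 of the 73 had a p under 0.05, which is 8.22% against 35.9% of all tested genes. These were Mrpl32 and Mrpl52 upwards and Mrpl4, Mrpl38, Mrpl35 and Mrps35 downwards. The log2 fold change was negative for 53 genes and positive for 20, with a median of -0.08 and a range from -0.33 (Mrpl38) to 0.30 (Mrpl52). The median over all tested genes was 0.00 and that over all tested probe sets -0.03. This balance depended on the scaling and on single arrays: with the signals as deposited the median was 0.077, where that of all tested probe sets was 0.115, and without p38 5 it was -0.025, with 42 genes negative and 31 positive.

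**Figure D1:**
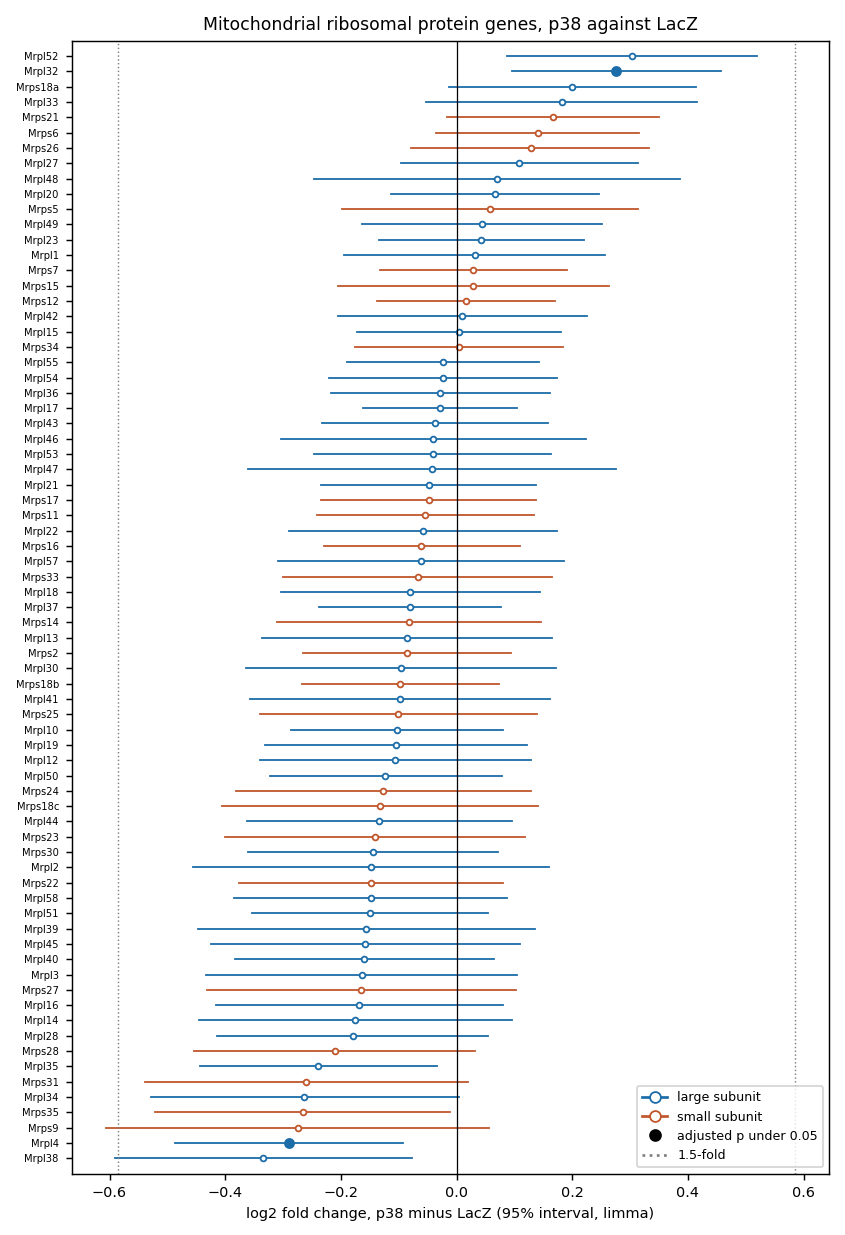
Log2 fold change, p38 minus LacZ, of each of the 73 mitochondrial ribosomal protein genes on the horizontal axis, 1 gene per line and sorted, with the 95% interval from limma (5 arrays in each group); blue marks genes of the large and orange genes of the small subunit, and filled points the 2 that passed. No estimate reaches the dotted lines at 1.5-fold, and most intervals cross 0.

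The intervals bound how large a difference these arrays leave room for. For 20 of the 73 genes the whole 95% interval lay within a 1.2-fold change in either direction, for 71 within a 1.5-fold and for all 73 within a 2-fold change. Over all tested genes the same shares were 12.1%, 70.4% and 93.1%. The highest upper bound was a 1.43-fold rise, for Mrpl52, and the lowest lower bound a 1.52-fold fall, for Mrps9. Estimates of at least 1.2-fold were found for 6 genes, against 35.2% of all tested genes, and of at least 1.5-fold for none, against 7.31%. The interval reached a median of 0.225 on the log2 scale to either side of the estimate. Smaller differences were mostly not resolvable with 5 arrays per group. Some other probe sets and selections of arrays left room for larger falls. On the log2 scale, a further probe set of Mrps27 had an interval from -1.041 to -0.012 and one of Mrpl40 from -0.748 to -0.08. The interval of Mrps9 ran from -0.917 to -0.47 among the arrays of fluidics status Completed, described below.

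**Figure D2:**
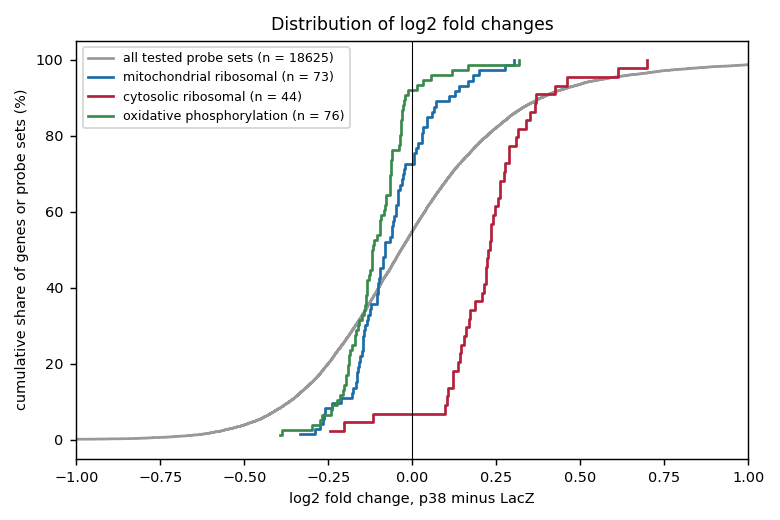
Cumulative share, in percent, of genes or probe sets (vertical axis) at or below each log2 fold change, p38 minus LacZ (horizontal axis, shown from -1 to 1), for all 18625 tested probe sets, the 73 mitochondrial ribosomal, 44 cytosolic ribosomal and 76 oxidative phosphorylation genes. The curve of the mitochondrial ribosomal genes is steep and centred on -0.08, while that of the cytosolic ribosomal genes is centred on 0.23.

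Mrpl32 encodes a large subunit protein with a bacterial counterpart, whose precursor is known from yeast and mouse to be cut by the m-AAA protease before it joins the ribosome. Its log2 level was 9.76, 9.90, 9.65, 10.07 and 9.74 on LacZ arrays 1 to 5 and 10.07, 10.11, 10.10, 10.11 and 10.10 on p38 arrays 1 to 5. The p38 values lay close together and just above the highest LacZ value, that of LacZ 4, with which p38 1 is level to the second decimal. The difference was 0.28 ± 0.08 (SE, 5 against 5; adjusted p = 0.0422), a 1.21-fold rise. It was the only one of the 73 genes whose groups did not overlap, while 7.4% of all tested genes had every p38 array above every LacZ array and 4.74% every p38 array below.

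Mrpl4 encodes a large subunit protein whose bacterial counterpart lines the tunnel through which the growing peptide leaves the ribosome. Its log2 level was 11.23, 11.24, 11.23, 11.27 and 11.08 on LacZ arrays 1 to 5 and 11.05, 10.92, 11.12, 10.59 and 10.92 on p38 arrays 1 to 5. LacZ 1 to 4 stood above all p38 arrays, LacZ 5 fell below p38 3, and p38 4 was the lowest. The difference was -0.29 ± 0.09 (SE, 5 against 5; adjusted p = 0.0477), with LacZ 1.22-fold above p38. Both calls lay close to the threshold and were lost under several other settings, among them the signals as deposited, where the adjusted p was 0.0835 for Mrpl32 and 0.529 for Mrpl4, and centring on the median, with 0.059 and 0.115.

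**Figure D3:**
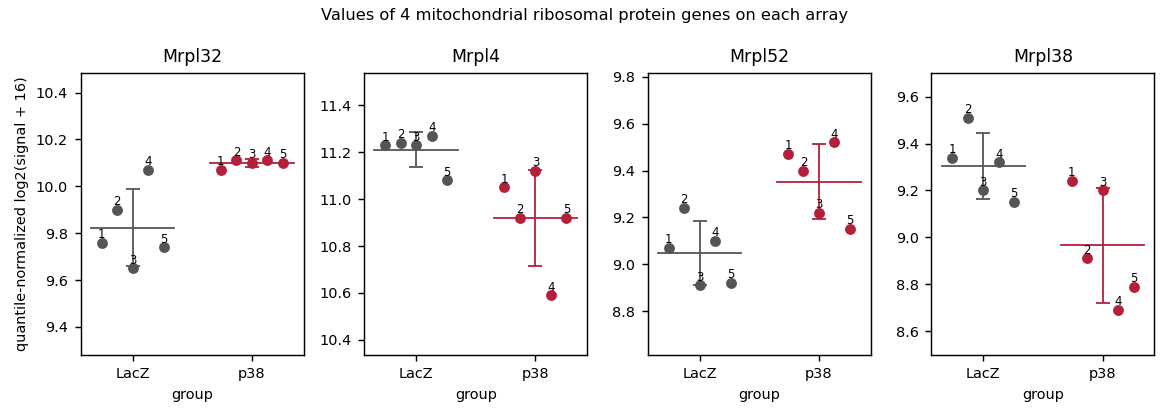
Quantile-normalized log2(signal + 16) of Mrpl32, Mrpl4, Mrpl52 and Mrpl38 on each array (vertical axis, the same span in every panel), by group, with replicate numbers, the group mean (horizontal line) and SD (vertical bar, n = 5). The p38 values of Mrpl32 sit between 10.07 and 10.11, while those of the other 3 genes spread more widely than the LacZ values.

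The promoters of both genes and of Mrps18b are shown from the RefSeq GRCr8 assembly, as those of the genes that passed and as an example that holds both an NRF1 and an ETS match. Each runs from 250 bases before the annotated start to 20 bases into the transcript, 5′ to 3′, with matches to the motifs searched in capitals.
Mrpl32 (chr17:55260401-55260670, plus strand): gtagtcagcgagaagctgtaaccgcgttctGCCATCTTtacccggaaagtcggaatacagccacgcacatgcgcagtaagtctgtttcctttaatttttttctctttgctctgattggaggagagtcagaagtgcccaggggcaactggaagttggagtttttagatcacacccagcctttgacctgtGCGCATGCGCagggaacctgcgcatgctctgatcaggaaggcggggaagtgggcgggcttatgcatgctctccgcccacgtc
Mrpl4 (chr8:27815521-27815790, plus strand): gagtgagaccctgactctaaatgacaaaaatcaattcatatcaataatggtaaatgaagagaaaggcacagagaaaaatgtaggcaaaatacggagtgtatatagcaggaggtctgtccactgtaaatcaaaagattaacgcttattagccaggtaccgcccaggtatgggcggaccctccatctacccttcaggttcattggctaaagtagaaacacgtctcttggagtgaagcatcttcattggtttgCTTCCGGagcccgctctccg
Mrps18b (chr20:2842756-2843025, plus strand): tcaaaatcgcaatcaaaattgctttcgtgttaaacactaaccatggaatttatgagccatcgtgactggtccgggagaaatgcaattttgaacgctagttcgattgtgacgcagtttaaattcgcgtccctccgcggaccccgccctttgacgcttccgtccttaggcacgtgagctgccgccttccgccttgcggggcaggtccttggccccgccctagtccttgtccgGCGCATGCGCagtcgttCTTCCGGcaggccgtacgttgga
In Mrpl32 the capitals mark a YY1 match on the minus strand at -220 to -213 and an NRF1 match at -62 to -53, counted from the annotated start. In Mrpl4 they mark 1 ETS match on the minus strand that begins at the start itself. In Mrps18b they mark an NRF1 match at -20 to -11 and an ETS match on the minus strand at -3 to 4.

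Promoter sequences were found for 59 of the 73 genes, and the letters GCGCANGCG (NRF1), CCGGAAG (ETS and GABP) and AAGATGGC (YY1) were searched on both strands of windows of 300 bases, from 250 before to 50 after the start. Matches of different motifs may overlap. The NRF1 letters stood in 11 of the 59 windows, 18.6% against 8.05% of 19005 protein-coding genes. The ETS letters stood in 20, 33.9% against 11.2%, and the YY1 letters in 14, 23.7% against 3.92%. At least 1 of the 3 motifs stood in 35 windows, 59.3% against 20.3%. Genes with an NRF1 match (11) had a median log2 fold change of -0.10 and those without (48) of -0.06. Genes with an ETS match (20) had a median of -0.04 and those without (39) of -0.08. Medians by YY1 match were not computed. A match describes the letters of the window and was not tested as a binding site.

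The largest rises that did not pass belonged to Mrpl52, Mrps18a and Mrpl33. Mrpl52, a protein that exists only in mitochondrial ribosomes, measured 9.07, 9.24, 8.91, 9.10 and 8.92 on the LacZ arrays and 9.47, 9.40, 9.22, 9.52 and 9.15 on the p38 arrays. The groups overlapped only through p38 3 and p38 5, which lay below LacZ 2, and the difference of 0.30 ± 0.10 had an adjusted p of 0.0549. A second tested probe set of Mrpl52 differed by 0.005 ± 0.178 (adjusted p = 0.989), and with both averaged the difference was 0.154, so the rise rests on the brighter probe set. Mrpl33, a small protein with a bacterial counterpart, measured 11.22 ± 0.10 in LacZ and 11.40 ± 0.26 in p38 (SD, n = 5 each; adjusted p = 0.261). Its value on p38 5, 11.00, lay below every LacZ array. Those on p38 1, 2 and 3, at 11.66, 11.51 and 11.54, lay above every one. Mrps18a is described with its relatives below.

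The largest falls that did not pass belonged to Mrpl38, Mrps9 and Mrps35. Mrpl38, a mitochondria-specific protein of the central protuberance, measured 9.34, 9.51, 9.20, 9.32 and 9.15 on the LacZ arrays and 9.24, 8.91, 9.20, 8.69 and 8.79 on the p38 arrays. The lower values were those of p38 2, 4 and 5, and p38 1 and 3 lay within the LacZ range, for a difference of -0.33 ± 0.12 (adjusted p = 0.0712). Mrps9, whose bacterial counterpart reaches to the transfer RNA in the peptidyl site, measured 10.67, 10.83, 10.55, 10.66 and 10.38 on the LacZ arrays and 10.82, 10.55, 10.38, 9.87 and 10.10 on the p38 arrays. Here p38 1 lay near the top of the LacZ range and p38 4 and 5 lay well below it, and the difference was -0.28 ± 0.15 (adjusted p = 0.228). Mrps35, a mitochondria-specific small subunit protein, was likewise highest on p38 1, at 10.41, and lower on p38 4 and 5, down to 9.70, against 10.28 to 10.51 in LacZ, with a difference of -0.27 ± 0.12 (adjusted p = 0.136).

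The medians of both subunits lay at the same value. By where the protein sits in the assembled ribosome, 48 genes belong to the large subunit, with 1 higher, 1 lower and a median log2 fold change of -0.08. The other 25 belong to the small subunit, with none passing and a median of -0.08. By origin, 44 genes encode proteins with a bacterial counterpart, again with 1 higher, 1 lower and a median of -0.06, and 29 encode mitochondria-specific proteins, with none passing and a median of -0.10. Differences between these subsets were not tested.

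Mrps18a, Mrps18b and Mrps18c are 3 relatives of the bacterial protein S18, which in mitochondria sit at different places, the first of them in the large subunit. Mrps18a measured 9.89 ± 0.14 in LacZ and 10.09 ± 0.18 in p38 (SD, n = 5 each), a difference of 0.20 ± 0.10 (adjusted p = 0.176). Mrps18b measured 10.81 ± 0.10 and 10.71 ± 0.13, a difference of -0.10 ± 0.08 (adjusted p = 0.412). Mrps18c, the dimmest of the 73 probe sets, measured 8.54 ± 0.22 and 8.41 ± 0.20, a difference of -0.13 ± 0.13 (adjusted p = 0.487). The groups overlapped for each of the 3 genes, and none passed.

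Mrpl10 and Mrpl12 form the stalk of the large subunit, which recruits translation factors. Mrpl10 measured 9.37 ± 0.06 in LacZ and 9.27 ± 0.14 in p38 (SD, n = 5 each), a difference of -0.10 ± 0.09 (SE; adjusted p = 0.42). Mrpl12 measured 11.51, 11.68, 11.64, 11.61 and 11.39 on the LacZ arrays and 11.82, 11.53, 11.50, 11.30 and 11.15 on the p38 arrays, which span the LacZ range on both sides (difference -0.11 ± 0.11, adjusted p = 0.524). Mrpl17, the brightest of the 73 probe sets and another large subunit protein with a bacterial counterpart, stood at 12.26 ± 0.11 in LacZ and 12.24 ± 0.06 in p38, and its 95% interval ran from -0.16 to 0.10.

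For 18 genes the array carries more than 1 probe set, and 20 of the 24 further probe sets passed the filter on dim values. None of these 20 passed as higher and 2 passed as lower, while of all tested probe sets 8.6% passed as higher and 7.4% as lower. One further probe set of Mrpl37, a mitochondria-specific large subunit protein, was lower by -0.46 ± 0.12 (adjusted p = 0.0268), with every p38 array below every LacZ array, whereas the brightest one differed by -0.08 ± 0.07 (adjusted p = 0.463). One of the 3 further probe sets of Mrpl51, also mitochondria-specific, was lower by -0.29 ± 0.09 (adjusted p = 0.0449), whereas the brightest one differed by -0.15 ± 0.10 (adjusted p = 0.287). For Mrpl49, Mrpl50, Mrps15 and Mrps2 a further probe set had the opposite sign to the brightest one, with neither passing. Probe sets could also differ widely with the same sign and the same call, as for Mrps27, at -0.165 for the brightest and -0.305 and -0.526 for the others, and for Mrpl40, at -0.16 and -0.414. Both examples were picked with their values in view. The value of a gene with several probe sets can therefore depend on which one is taken.

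The genes varied more among the p38 arrays than among the LacZ arrays. The SD over 5 arrays was larger in p38 for 65 of the 73 genes, with a median SD of 0.11 in LacZ and 0.21 in p38. Over all tested genes, 69.7% had the larger SD in p38, and the medians were 0.14 and 0.20. The mean log2 level of the 73 genes was 10.38, 10.48, 10.31, 10.45 and 10.31 on LacZ arrays 1 to 5 and 10.57, 10.38, 10.37, 10.20 and 10.09 on p38 arrays 1 to 5. The highest and the 2 lowest of the 10 arrays thus all belonged to p38. Array p38 1 was the highest of its group for 60 genes and p38 5 the lowest for 57. Within LacZ, array 2 was the highest for 38 genes, and arrays 3 and 5 were the lowest for 30 and 28.

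**Figure D4:**
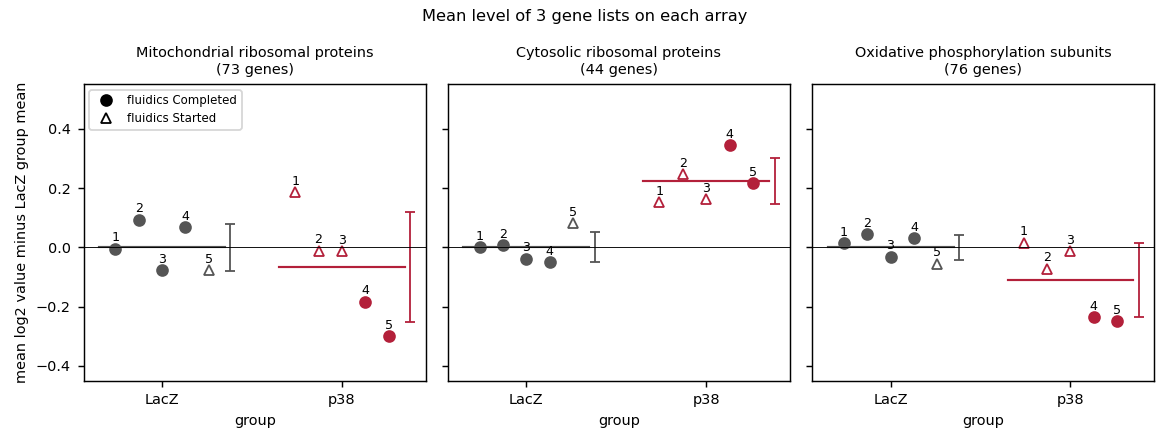
Mean log2 level of 3 gene lists on each array, minus the mean of the LacZ group (vertical axis), by group, with replicate numbers, the group mean (horizontal line) and SD (vertical bar beside it, n = 5); circles are arrays whose fluidics status reads Completed and open triangles those that read Started. The mitochondrial ribosomal genes spread on both sides of the LacZ mean in p38, the cytosolic ribosomal genes lie above every LacZ array on every p38 array, and the oxidative phosphorylation genes are lowest on p38 4 and 5.

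This variation was shared among the genes. With the group means removed, the correlation over the 10 arrays between 2 mitochondrial ribosomal protein genes had a median of 0.722 over 2628 pairs, and 95.7% of the pairs were positive. The median was 0.568 within LacZ and 0.824 within p38, with 5 arrays each, and 0.007 between all tested genes over the 10 arrays. It was 0.531 among cytosolic ribosomal genes and 0.647 among oxidative phosphorylation genes. Mitochondrial ribosomal genes correlated with oxidative phosphorylation genes at a median of 0.635 and with cytosolic ribosomal genes at a median of -0.374. All these values rest on the same 10 arrays and their common normalization and are descriptions only.

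The 5 other probe sets whose pattern was most like the mean of the 73 genes belonged to Atp5f1e, Eci1, Tefm, Mterf4 and Ppp1r1a, with correlations of 0.994, 0.992, 0.984, 0.982 and 0.981 over the 10 arrays after removal of the group means. Atp5f1e encodes the epsilon subunit of the ATP synthase, Eci1 an enzyme of mitochondrial fatty acid oxidation, Tefm the elongation factor of mitochondrial transcription, Mterf4 a protein of mitochondrial ribosome assembly and Ppp1r1a an inhibitor of protein phosphatase 1. Atp5f1e measured 12.87 to 13.07 on the LacZ arrays and 12.71 to 13.17 on the p38 arrays. It too was highest on p38 1 and lowest on p38 5, and none of the 5 passed between the groups.

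The p38 arrays differ in a technical label, the fluidics status of the array station. The experiment files give a fluidics status of Completed for LacZ 1 to 4 and p38 4 and 5, and of Started for LacZ 5 and p38 1 to 3. The mean of the 73 genes was 0.26 lower in p38 than in LacZ on the log2 scale among the Completed arrays (10.14 against 10.41) and 0.13 higher among the Started arrays (10.44 against 10.31, the latter being LacZ 5 alone). Within the 4 fluidics modules, which hold 1 or 2 arrays of a group each, the difference of p38 minus LacZ was -0.14, -0.15, 0.07 and -0.08.

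Fitted on the Completed arrays alone, 4 LacZ against 2 p38, 33 of the 73 genes were lower (45.2%, against 20.5% of all genes tested there) and none higher (against 20.7%), with a median of -0.27. Mrps9 differed by -0.69 ± 0.10 there (adjusted p = 0.000374) and Mrpl38 by -0.60 ± 0.11 (adjusted p = 0.00174). On the Started arrays alone, 1 LacZ against 3 p38, none passed by limma in either direction, 5 had an unadjusted p under 0.05, all upwards, and 61 of 73 had a positive difference, with a median of 0.12. There 0.00941% of all genes passed in each direction, and the lone LacZ array was taken to vary like the p38 arrays. Both selections were made after the values had been seen.

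The difference between the 2 contrasts, Completed minus Started, was itself tested in a fit with an interaction term. This test was added after the split by status had been seen, and its Started contrast rests on LacZ 5 as the only LacZ array, taken to vary like the other arrays. It passed as negative for 5 genes, Mrps9, Mrpl28, Mrpl58, Mrpl45 and Mrps23, and as positive for none, against 1.62% and 3.51% of all tested genes. With fluidics status as a block over all 10 arrays, 1 gene was higher and 4 were lower (Mrpl4, Mrpl38, Mrps35 and Mrpl34), against 13.5% and 10.3% of all tested genes, and the median was -0.13. What the status records beyond its wording is not stated in the labels or headers, and its part in the result was not tested.

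**Figure D5:**
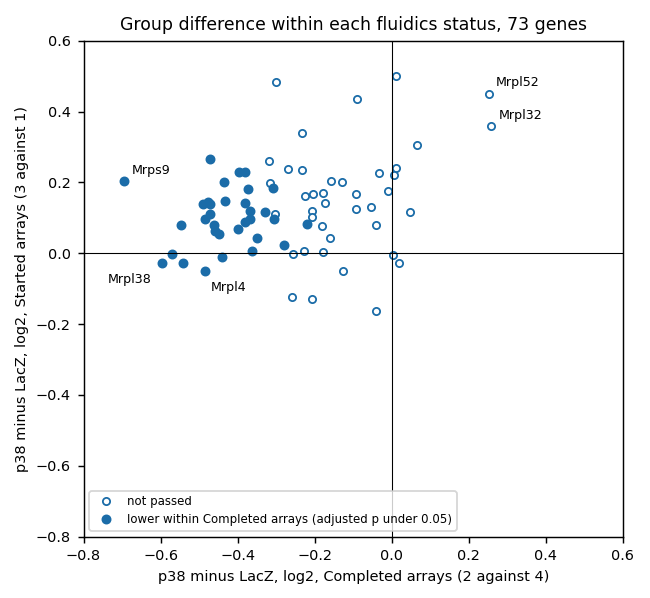
Difference p38 minus LacZ on the log2 scale for each of the 73 genes among arrays with status Completed (horizontal axis, 2 p38 against 4 LacZ) and with status Started (vertical axis, 3 p38 against 1 LacZ); filled points passed as lower among Completed arrays. Most points lie left of 0 and above 0, and Mrpl32 and Mrpl52 are among the genes that are positive on both axes.

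Single p38 arrays moved the counts as well. Without p38 1, 1 gene was higher and 7 were lower, against 16.3% and 10.8% of all tested genes, and the median was -0.12. Those 7 were Mrpl4, Mrpl38, Mrpl35, Mrps35, Mrpl34, Mrps31 and Mrps9. Without p38 5, 2 were higher and none lower, against 6.88% and 3.15%, and without p38 4 none passed by limma in either direction, against 4.99% and 2.31%, with 2 genes each way at an unadjusted p under 0.05. Array p38 1 also carried the highest mean of the atrial markers Myl4, Myl7 and Sln, 8.33 on the log2 scale against 6.28 to 6.85 on the other 9 arrays, and the part of this in the result was not tested.

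The means of the macrophage and monocyte, proliferation and smooth muscle markers were highest on p38 4 and 5. Other marker lists did not follow these arrays in the same way. The fibroblast mean on p38 4 (11.82) lay below that on LacZ 5 (11.97), and the red cell mean was similar on p38 3 (9.02) and p38 5 (9.04). For comparison with the counts below, 11.6% of all tested genes were higher and 6.23% lower in the fit of all arrays. Of 12 tested macrophage and monocyte markers, 9 were higher in p38 (5 to 12 with 1 array left out, the lowest without LacZ 3 or p38 4 and the highest without p38 1), and their mean ran from 8.82 to 9.34 on the LacZ arrays and from 9.11 to 10.16 on the p38 arrays. The smallest p was that of Fcgr2b, an inhibitory antibody receptor, at 1.46 ± 0.25 (adjusted p = 0.00802). Their mean was 1.25 higher in p38 among Completed arrays and 0.12 higher among Started arrays, and it was highest on p38 4 and 5, where the mitochondrial ribosomal genes were lowest. One marker, Itgam, was too dim to be tested. Of 6 proliferation genes, 5 were higher, with a mean of 5.89 to 7.15 in LacZ and 7.09 to 8.30 in p38 and the smallest p for Ccnb2, a mitotic cyclin. The cardiomyocyte markers had 1 lower gene of 9, the calcium release channel Ryr2 at -0.26 ± 0.07 (adjusted p = 0.0331). This call was lost without any one of LacZ 1 to 4 or p38 2, 4 or 5. The means of the cardiomyocyte markers were 13.65 to 13.68 in LacZ against 13.59 to 13.64 in p38. Whether differences are compressed in such bright probe sets was not tested. Of 6 endothelial markers 2 were lower, with the smallest p for Tie1, and of 3 red cell markers 2 were lower, with the smallest p for Slc4a1 (1 to 3 in each list with 1 array left out). Of 4 smooth muscle markers 2 were higher and 1 lower, led by Cnn1 and Myh11 (with 1 array left out 1 to 2 higher and 0 to 1 lower), and of 8 fibroblast and 3 atrial markers none passed by limma. In such bulk tissue, fewer cells of a type and less RNA per cell cannot be told apart, and the part of these markers in the result was not tested.

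The cytosolic ribosome, the larger ribosome that reads nuclear messages, showed other counts in the same fit. Of its 44 tested protein genes 28 were higher and none lower, against 11.6% and 6.23% of all tested genes. The median log2 fold change of the 44 was 0.23. The smallest p was that of Rpl35a, at 0.34 (adjusted p = 0.00732). The mean of these genes was 12.03 to 12.17 on the LacZ arrays and 12.24 to 12.43 on the p38 arrays, which did not overlap, whereas the mitochondrial ribosomal mean overlapped, at 10.31 to 10.48 and 10.09 to 10.57. The cytosolic difference was positive among Completed arrays (0.30) and among Started arrays (0.11). With each array left out in turn the count of higher genes ran from 17, without p38 4, to 32, without p38 1 or p38 3. Of all tested genes, 4.99% were higher without p38 4 and 16.3% without p38 1. The 2 lists were not tested against each other.

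Subunits of oxidative phosphorylation include the partners of the proteins that the mitochondrial ribosome makes. In the fit of all arrays, 11.6% of all tested genes were higher and 6.23% lower. Of 76 tested genes in the list of oxidative phosphorylation, 1 was higher, at 0.32 (adjusted p = 0.0281). This was Atp5if1, which encodes an inhibitor of the ATP synthase and not a subunit. A further 4 were lower, and the median of the 76 was -0.12. The smallest p among these 4 was that of Ndufs1, a subunit of complex I, at -0.30 ± 0.05 (adjusted p = 0.00854). The count of lower genes in this list depended on the arrays. With each left out in turn it ran from 2, without LacZ 1, to 21, without p38 1. Without p38 1, 10.8% of all tested genes were lower. Over all tested probe sets the lower calls ran from 540 to 2149 in those fits, against 1378 with all arrays. Among the Completed arrays alone the count for this list was 57, where 20.5% of all tested genes were lower. COX1 and COX2, subunits of complex IV encoded in mitochondrial DNA and so products of this ribosome, differed by 0.00 ± 0.04 and 0.02 ± 0.04 and did not pass. Their log2 levels, 13.68 to 13.91 over all arrays, lie near the top of the array's range. Whether differences are compressed there was not tested.

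Partners of the mitochondrial ribosome were counted in the same fit, in which 6.23% of all tested genes were lower and 11.6% higher. Of 18 tested translation factors and membrane partners of the ribosome, none was higher and 4 were lower, with a median of -0.25. Letm1, an inner membrane protein that binds the ribosome in yeast and mammals, measured 10.12 ± 0.08 in LacZ and 9.68 ± 0.10 in p38 (SD, n = 5 each), a difference of -0.44 ± 0.08 (adjusted p = 0.00818). Gfm1, the elongation factor that moves the ribosome along the message, differed by -0.39 ± 0.09 (adjusted p = 0.0162). Tufm, the factor that brings in the charged transfer RNA, differed by -0.34 ± 0.09 (adjusted p = 0.0225). For each of these 3 genes every p38 array lay below every LacZ array, as it did for 4.74% of all tested genes. Oxa1l, the insertase that threads new proteins into the inner membrane, differed by -0.35 ± 0.11 with overlapping groups (adjusted p = 0.0452).

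Of 26 tested genes for assembly of the mitochondrial ribosome, 1 was higher and 2 were lower, against 11.6% and 6.23% of all tested genes. The median of the 26 was -0.18. Mpv17l2, a ribosome-binding membrane protein, was higher by 0.29 (adjusted p = 0.0458). The 2 lower genes were Afg3l2, at -0.35 ± 0.09 (adjusted p = 0.026), and Spg7, at -0.39 ± 0.12 (adjusted p = 0.0371). Both encode subunits of the m-AAA protease that cuts the Mrpl32 precursor. Of 22 tested genes for upkeep and transcription of mitochondrial DNA, none was higher and 3 were lower (median -0.09), with the smallest p for the protease Lonp1 at -0.33 (adjusted p = 0.0128). Of 13 tested mitochondrial aminoacyl-tRNA synthetases, which load transfer RNAs, none was higher and 3 were lower (median -0.18), with the smallest p for Wars2 at -0.52 (adjusted p = 0.0293).

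The counts of lower genes in these 4 lists also moved with the arrays. With each array left out in turn they ran from 2 to 6 for translation factors, 0 to 6 for assembly, 1 to 5 for mitochondrial DNA expression and 0 to 5 for the synthetases. Calls over all tested probe sets moved too, from 540 to 2149 lower, against 1378 with all arrays. Of all tested genes, 10.8% were lower without p38 1, 2.31% without p38 4 and 3.15% without p38 5. The highest for assembly and the synthetases were those without p38 1, and the counts were 0 for both without LacZ 1, 2 or 3 or without p38 4 or 5. Among the Completed arrays alone they were 12, 14, 9 and 7, in a fit that called 20.5% of all tested genes lower. Among the Started arrays they were 0 in each list by limma, in a fit that called 0.00941% of all tested genes lower.

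A further 5 proteins of the mitochondrial ribosome carry other names, Chchd1, Dap3, Ptcd3, Gadd45gip1 and Aurkaip1. None of the 5 passed, their differences ran from -0.05 to 0.18, and the median was 0.05. Of 10 tested regulators of nuclear genes for mitochondrial proteins, 1 was higher and 2 were lower, against 11.6% and 6.23% of all tested genes. Ppargc1a, the coactivator known to drive mitochondrial biogenesis in the heart, differed by -0.69 ± 0.16 (adjusted p = 0.0179). It measured 10.05 ± 0.13 in LacZ and 9.36 ± 0.42 in p38. Every p38 array lay below every LacZ array, as for 4.74% of all tested genes. Ppargc1b, a relative of Ppargc1a, was lower by -0.57 ± 0.16 (adjusted p = 0.0315). Myc, a transcription factor known to drive ribosome production and growth, was higher by 1.29 ± 0.40 with overlapping groups (adjusted p = 0.0453). With each array left out in turn, 0 to 3 of the regulators were lower and 0 to 1 higher, so that the calls of Ppargc1a, Ppargc1b and Myc were all lost by limma without LacZ 3. Over all tested probe sets the calls ran from 540 to 2149 lower and from 686 to 2322 higher in those fits.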

How the data were processed

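The deposited table holds 1 signal intensity per probe set and array, made by the authors in GCOS 1.2 according to the submitters' processing notes; no source used here says if arrays were scaled. Fluidics status and module were read from the deposited experiment files. Groups and replicate numbers came from the sample titles. The members, gene lists and rule for named genes were chosen with earlier results of these data known.

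Intensities were taken as log2(signal + 16), which understates changes of dim probe sets, and quantile normalized. The 57 control probe sets and the dimmest 40% of the others were left out. A gene name was taken only where the platform annotation gives a probe set 1 symbol. All 73 genes had an Entrez identifier and the same symbol in the RefSeq GRCr8 table, from which promoter sequences were also taken. Groups were compared, two-sided, by limma (version 3.58.1, run under R 4.3.3) with moderated variances that follow intensity, with Benjamini-Hochberg adjustment over all 18625 tested probe sets and a threshold of 0.05. The steps were tested on simulated data with independent noise for each probe set. Those data lack the shared variation of the 73 genes, so they cannot show how well small differences in these genes are detected. Named genes are those that passed, the 3 largest rises and 3 largest falls that did not, the brightest and dimmest, the S18 and stalk proteins, genes whose probe sets disagree in sign or call, and in other lists the smallest p in each direction among genes that passed, or all that passed for translation factors. Other names, which identify small counts, were chosen after their values were seen. Alternatives covered pseudocounts, scalings, filters, variance models, array weights, blocks, averaging of probe sets and each array left out.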

Additional observations from a re-analysis of the deposited data

Results flagged for a closer look

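In 44 sets of 5 arrays, those of the named genes and of the means of the mitochondrial ribosomal genes in each group, 1 set had an array farther from the other 4 than Dixon's 95% critical value allows, where chance alone gives about 1 in 20. Mrpl4 on LacZ 5 measured 11.08 on the log2 scale, against 11.23 to 11.27 on the other LacZ arrays, a gap of 0.759 of the whole range. LacZ 5 was the only LacZ array with the fluidics status Started.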

How the results depend on the processing

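Across 27 alternatives, 3 of them chosen after seeing the data, Mrpl32 stayed positive (0.23 to 0.44) and passed in 11, with adjusted p-values from 0.0181 to 0.951, and Mrpl4 stayed negative (-0.48 to -0.05) and passed in 11, with adjusted p-values from 0.00175 to 0.984. With each array left out in turn, 0 to 2 of the 73 genes were higher, 0 to 7 were lower, and the median log2 fold change ran from -0.123 to -0.025; Mrpl32 lost its call without LacZ 1, 2, 3 or 5 or p38 2, 4 or 5, and Mrpl4 without LacZ 1, 2, 3 or 4 or p38 2, 4 or 5. By number of genes higher and lower, the signals as deposited gave 0 and 0, no filter on dim probe sets 0 and 0, no variance trend 0 and 0, cyclic loess 2 and 0, the dimmest 60% left out 2 and 1, array weights 2 and 4, the fluidics module as a block 0 and 1, fluidics status as a block 1 and 4, and LacZ 5 and p38 1 both left out 0 and 6. Median centring, the robust variance model and the mean of all probe sets of a gene each gave 1 and 0. Calls over all tested probe sets moved too. With each array left out in turn they ran from 686 to 2322 higher and from 540 to 2149 lower. The counts of the 73 genes alone therefore do not separate their own moves from a general change in calling. Among Completed arrays the counts were 0 and 33, against 20.7% and 20.5% of all tested genes, with a median of -0.27. Among Started arrays, with LacZ 5 as the only LacZ array, the median was 0.12. With signals as deposited the median was 0.077, where the median of all tested probe sets was 0.115. The cause of these moves was not tested.

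Replicate numbers were not used to pair the samples. Same-numbered arrays correlated at 0.084, 0.103, 0.044, -0.135 and 0.276 in their deviations from the group means. Such values cannot exclude a pairing, as they were not set against those of differently numbered arrays. With the replicate number as a block 1 gene was higher and 0 were lower, with adjusted p-values of 0.053 for Mrpl32 and 0.0585 for Mrpl4.

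Several genes that did not pass changed sign. With signals as deposited Mrpl10 stood at 0.077, Mrpl12 at 0.039, Mrpl17 at 0.072, Mrpl37 at 0.073, Mrpl50 at 0.051, Mrps18b at 0.055, Mrps18c at 0.037 and Mrps2 at 0.086. Among Started arrays Mrpl10 stood at 0.007, Mrpl12 at 0.23, Mrpl17 at 0.125, Mrpl37 at 0.082, Mrpl50 at 0.023, Mrpl51 at 0.088 and Mrps9 at 0.203, and among Completed arrays Mrpl33 stood at -0.089, Mrpl49 at -0.093 and Mrps15 at -0.232. Mrps15 was negative with LacZ 5 and p38 1 both left out (-0.066), with the module block (-0.013), with the status block (-0.028) and with its probe sets averaged (-0.049). Mrpl49 was negative with LacZ 5 and p38 1 both left out (-0.029) and with the status block (-0.001). With each array left out in turn, Mrps15 ran from -0.026 to 0.086, Mrpl49 from -0.02 to 0.115 and Mrpl17 from -0.061 to 0.008.

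With 5 arrays in each group, precision was limited throughout. COX1, COX2 and the cardiomyocyte markers lay near the top of the range, and whether differences are compressed there was not tested.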
